A study of Homo sapiens with 4 samples.

Results

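The subunits of the respiratory chain are the protein parts of the 5 enzyme complexes that carry out oxidative phosphorylation in the inner mitochondrial membrane, and their genes are split between the mitochondrial and the nuclear genome. They were picked by gene name. From the mitochondrial genome these are the MT-ND, MT-CO, MT-ATP and MT-CYB genes, and from the nucleus the numbered NDUFA, NDUFB, NDUFC, NDUFS and NDUFV genes, SDHA to SDHD, and every name that starts with UQCR, COX4 to COX8 or ATP5. Among all 60662 genes deposited, such a name is carried by 192, of which 92 were left out as pseudogene names that end in P and digits, and 100 were kept, 13 mitochondrial and 87 nuclear. MT-ATP6 and MT-ATP8 also end in P and a digit but encode subunits and were kept, while the rule read to the letter keeps 98. The names include 7 that stand for no subunit of their complex, namely COX7A2L, ATP5S, ATP5SL, the readthrough gene ATP5J2-PTCD1 and the gene copies ATP5J2LP, ATP5L2 and UQCRHL, so that nuclear counts are also given without them. NDUFA4, first named for complex I, is counted with complex IV, where it is now placed.

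Complexes I and II pass electrons from NADH and succinate to ubiquinone, complex III passes them on to cytochrome c, and complex IV to oxygen, while complex V, the ATP synthase, uses the proton gradient that complexes I, III and IV build to make ATP. Every complex but complex II joins subunits translated inside mitochondria to subunits translated in the cytosol and imported, so that both genomes must supply parts of the same machine. Mitochondrial genes are transcribed as long polycistronic RNAs from both strands, which are cut at the tRNAs between the genes. Most of the mRNAs then receive poly(A) tails. Each nuclear subunit gene instead has its own promoter.

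RNA was sequenced from NB4, a human leukaemia line of the M3/APL type that carries PML-RARα, after lentiviral transduction with a control vector (2 libraries) or with a vector for expression of JMJD3 (2 libraries), the histone H3K27 demethylase encoded by KDM6B. The comparison asks how transcript levels differ with added JMJD3. The study's methods describe GFP as the marker of the vectors and sorting of GFP+ cells, and poly(A)-selected libraries. Vector libraries 1 and 2 hold 39078443 and 40768225 counts as deposited, JMJD3 libraries 1 and 2 hold 35176388 and 34704909. No label tells if replicates stem from separate transductions, so a p-value here measures the difference against the spread between these libraries only. In bulk RNA fewer cells of a kind and less RNA per cell cannot be told apart. By their labels 3 libraries share lane 17, and vector library 1 comes from lane 20. Below, pairs of values are in the order library 1, library 2. CPM are counts relative to the TMM-scaled library size and serve to compare libraries, and FPKM, scaled by transcript length, serve to compare genes. A gene is said to have fallen or risen at an adjusted p under 0.05 from edgeR's quasi-likelihood test with Benjamini-Hochberg adjustment over 15246 genes.

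KDM6B (ENSG00000132510) stood at 15.8 and 13.7 CPM with the vector and 37.8 and 44.2 CPM with JMJD3, and its log2 fold change by edgeR was 1.48 (standard error 0.13, adjusted p = 0.00114). Both JMJD3 libraries thus lay above both vector libraries, as their labels say, and within lane 17 the value was 1.54. The 9 promyelocyte markers fixed for NB4 summed to 16771 and 17582 CPM with the vector and 10636 and 10602 CPM with JMJD3, none of them was at 0, and MPO, the granule peroxidase, was the most abundant. That sum, which is mostly MPO and PRTN3, was lower in both JMJD3 libraries. MPO, PRTN3, AZU1, CTSG, RARA and PML fell. CTSG fell furthest, at 145 and 164 CPM with the vector and 11.0 and 9.60 CPM with JMJD3. The log2 fold change of CTSG was -3.91 and that of PRTN3 -1.81. ELANE was not tested and rested on 11 and 7 reads with the vector and 1 and 2 with JMJD3. Not every marker was lower. CD33 stood at 65.1 and 68.7 CPM with the vector and 83.5 and 79.7 CPM with JMJD3 and CD68 at 14.01 and 14.3 CPM with the vector and 22.3 and 20.7 CPM with JMJD3, and both rose, at 0.29 (standard error 0.09, adjusted p = 0.038) and 0.60 (standard error 0.10, adjusted p = 0.00611) by edgeR. The CD33 log2 fold change lost the call without JMJD3 library 1 (0.25) or 2 (0.32), and the CD68 log2 fold change without JMJD3 library 1 (0.55). The 4 T cell markers summed to 3.76 and 5.18 CPM with the vector and 11.04 and 11.1 CPM with JMJD3, led by CD2, and the 3 B cell markers to 10.4 and 11.6 CPM with the vector and 17.6 and 15.9 CPM with JMJD3, led by CD79A and with MS4A1 at 0. The 3 megakaryocyte markers summed to 0.586 and 0.658 CPM with the vector and 1.74 and 1.61 CPM with JMJD3, all of it from ITGA2B, with PF4 and GP9 at 0. These 3 lists were higher in both JMJD3 libraries, at levels far below those of MPO. The 4 epithelial or packaging cell markers summed to 6.63 and 7.49 CPM with the vector and 3.43 and 2.82 CPM with JMJD3, led by EPCAM and with KRT19 at 0. That sum was lower in both JMJD3 libraries through EPCAM, while KRT8 overlapped between the groups. The 3 fibroblast markers summed to 0.0925 and 0.192 CPM with the vector and 0.0804 and 0.0448 CPM with JMJD3, with COL1A2 and COL3A1 at 0. Their part in the results on respiratory genes was not tested.

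Transcripts of respiratory chain subunits were lower in JMJD3 cells across all 5 complexes and from both genomes. Of 92 subunit genes that passed the expression filter 71 fell and 0 rose, while 19.1% of all genes tested fell and 21.6% rose. The DESeq2 Wald test also called 0 higher, and so did limma on either FPKM scale. At an unadjusted p under 0.05 edgeR and DESeq2 found 0 higher and limma 1, NDUFV3, on either scale. Together the subunit genes summed to 90251 and 89952 CPM with the vector and 61373 and 61095 CPM with JMJD3. The JMJD3 libraries thus held 68.0% of the vector mean, with both libraries of a group within 1% of each other, and the groups far apart. This sum is mostly mitochondrial, and replicates differed more in the sums of each genome, which are given below. Both JMJD3 libraries lay below both vector libraries for 82 of the 92 genes, against 35.0% of all genes tested. The median log2 fold change was -0.48 over the subunit genes and 0.04 over all genes, whose middle 50% ran from -0.30 to 0.44.

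By genome, 9 of 13 mitochondrial genes fell, with a median log2 fold change of -0.51, and 62 of 79 nuclear genes fell, with a median of -0.48. Without the names that stand for no subunit, 61 of 74 nuclear genes fell and the median was -0.48. The mitochondrial genes summed to 78332 and 76476 CPM with the vector and 52058 and 52472 CPM with JMJD3, and the nuclear genes to 11919 and 13476 CPM with the vector and 9314 and 8623 CPM with JMJD3. Both sums were lower in both JMJD3 libraries, at 67.5% and 70.6% of the vector mean. The nuclear genes also differed within the groups. Vector library 2 was above vector library 1 in 74 of 79 of them, against 49.9% of all genes, and JMJD3 library 1 above JMJD3 library 2 in 73, against 51.0% of all genes, so that the spread between replicates runs through the whole family. The ratio of mitochondrial to nuclear CPM was 6.57 and 5.67 with the vector and 5.59 and 6.09 with JMJD3. These ratios overlap between the groups, so that no shift of 1 genome against the other shows in the sums.

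**Figure D1:**
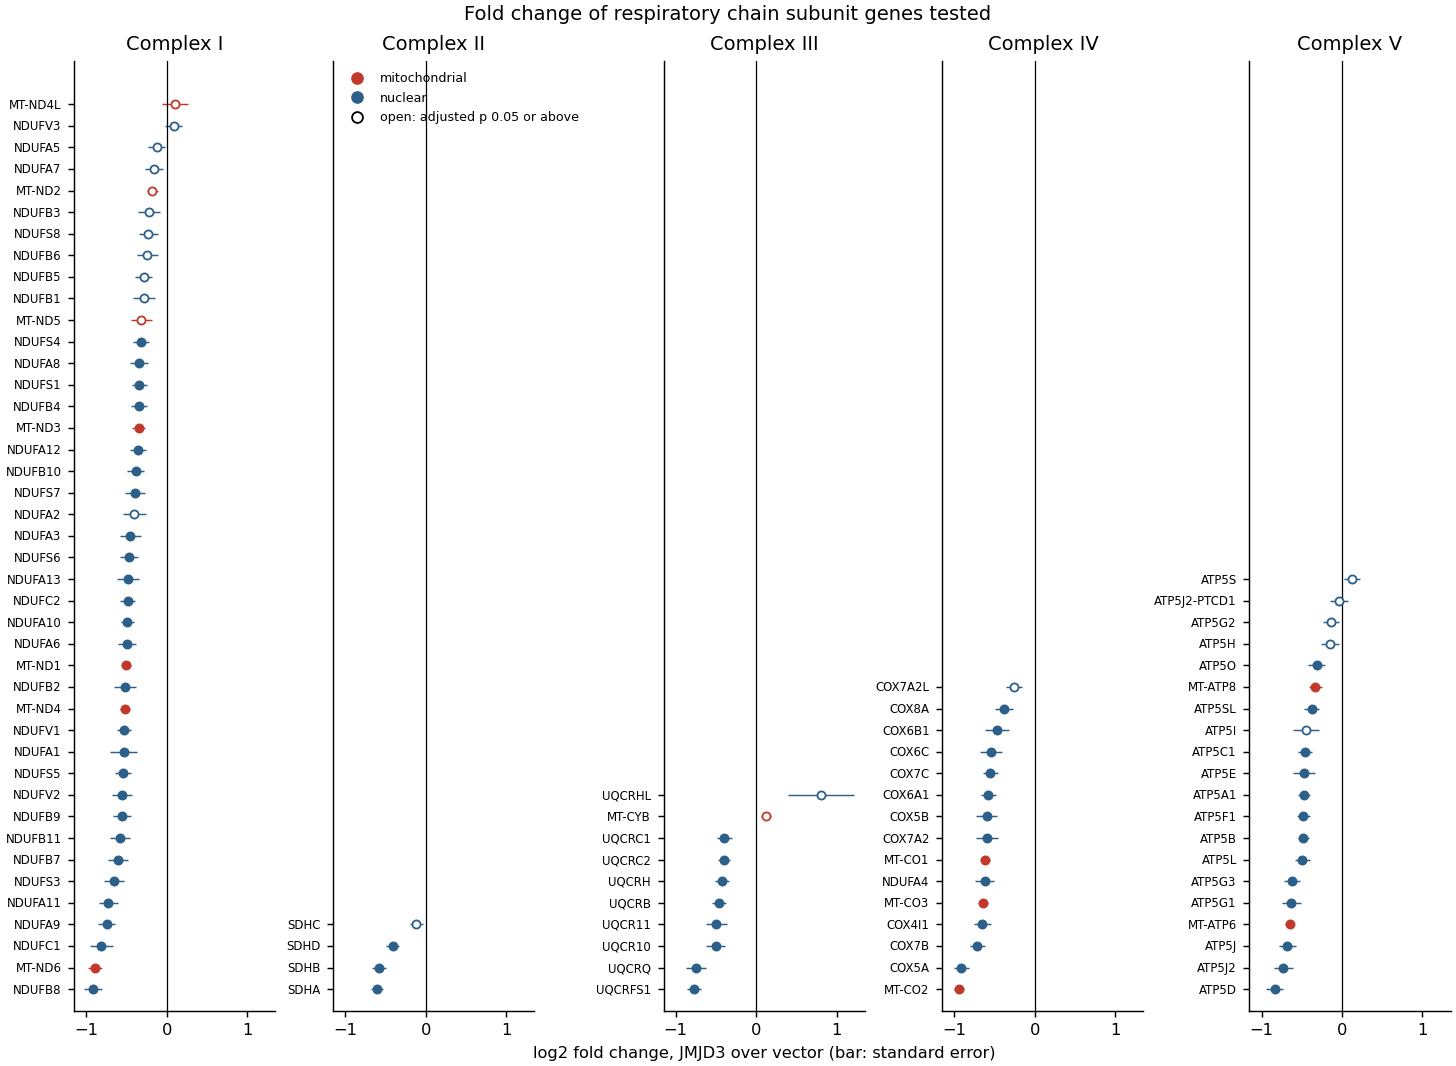
Log2 fold change (JMJD3 over vector, edgeR, horizontal axis) of subunit genes tested, by complex, with bars of 1 standard error; red marks mitochondrial and blue nuclear genes, and open circles an adjusted p of 0.05 or above. Filled circles all lie below 0, from -0.95 for MT-CO2 upward, and UQCRHL, at 0.81, has the widest bar.

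The number of genes called depended on scaling and on single libraries more than their direction did. With total counts and no further scaling 39 nuclear and 7 mitochondrial genes fell and MT-CYB rose, with 10.5% of all genes tested lower, as against 19.1% with TMM. That scaling moved the median of all genes to 0.21 on the log2 scale, and relative to it the medians of the mitochondrial and nuclear genes were -0.55 and -0.52, as against -0.55 and -0.52 with TMM. Leaving out vector 1, vector 2, JMJD3 1 and JMJD3 2 in turn, with the lone library assumed to vary like the other group, gave 73, 54, 46 and 23 nuclear genes lower. In the same fits 27.4, 21.8, 9.29 and 7.43% of all genes tested were lower. The fit without JMJD3 library 2 thus lost most calls, among all genes as well, yet 76 of 79 nuclear genes lay below 0 in each of these 4 fits. For the mitochondrial genes the same fits gave 9, 10, 7 and 8 lower. The fit without vector library 1 is the comparison within lane 17, and its medians were -0.53 for mitochondrial and -0.63 for nuclear genes. With no filter 36 nuclear genes fell, and limma called 2 mitochondrial genes lower on log2(FPKM + 1) and 5 on log2(FPKM + 0.1). The share of all genes lower was 6.55% with no filter and 14.8 and 15.0% with limma on these scales, so calls were fewer among all genes too.

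The 13 mitochondrial genes took up 7.43% (7.42 to 7.44%) and 7.16% (7.15 to 7.17%) of all reads in the vector libraries and 5.48% (5.47 to 5.49%) and 5.60% (5.59 to 5.61%) in the JMJD3 libraries, with 95% Wilson intervals in parentheses, which cover counting error only. The share was lower in both JMJD3 libraries, by more than the spread within either group, at 7.29 ± 0.191% (SD, n = 2) against 5.54 ± 0.0836% (SD, n = 2). An exact permutation test of 2 against 2 libraries cannot give a p below 0.333, so none is given. As a share of summed FPKM the same genes were at 17.1 and 14.7% with the vector and 14.2 and 15.3% with JMJD3. On that scale, which weighs short genes more, the groups overlap, since JMJD3 library 2 lies above vector library 2. Per length the mitochondrial genes were far above the nuclear ones, with a median of 11601 and 11375 FPKM with the vector and 7759 and 7926 FPKM with JMJD3 against 192 and 229 FPKM with the vector and 155 and 138 FPKM with JMJD3.

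**Figure D2:**
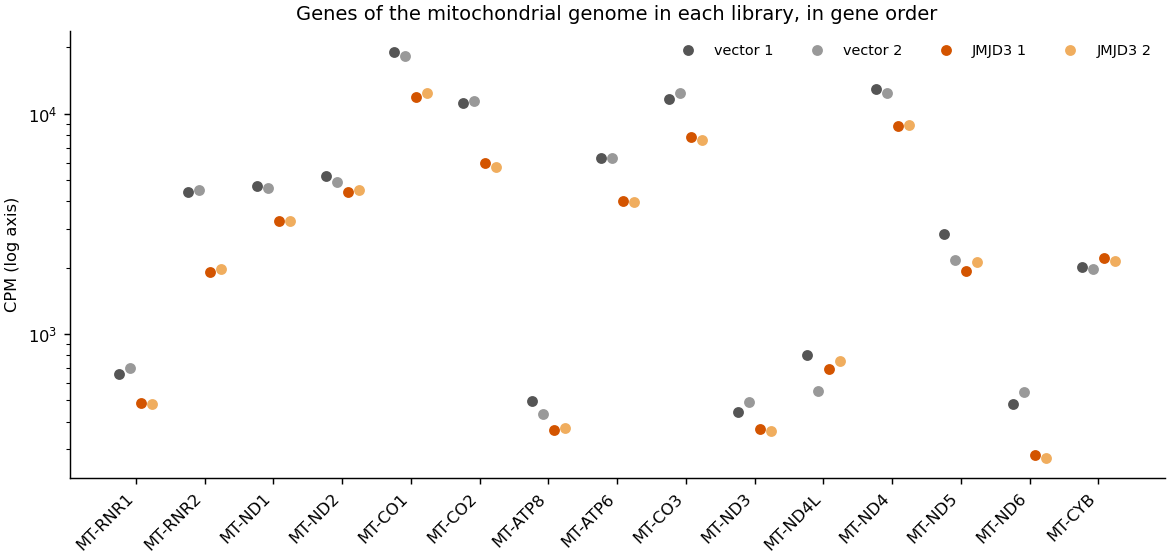
CPM (log axis) of the 13 subunit genes and both rRNA genes of the mitochondrial genome in each of the 4 libraries, in the order of the genes on the genome. The JMJD3 points lie below the vector points except at MT-ND4L, where they overlap, and at MT-CYB, where they lie above, at 2209 and 2150.4 against 2021 and 1982 CPM.

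Complex I, the NADH dehydrogenase and entry point for electrons from NADH, has 43 genes here, of which 31 fell, with a median log2 fold change of -0.45. Its 7 mitochondrial genes encode the hydrophobic core of the membrane arm that pumps protons, and 4 of them fell, MT-ND1, MT-ND3, MT-ND4 and MT-ND6. MT-ND4 stood at 12984 and 12412 CPM with the vector and 8776 and 8906 CPM with JMJD3, a log2 fold change by edgeR of -0.52 (standard error 0.06, adjusted p = 0.00226). MT-ND1 stood at 4706 and 4587 CPM with the vector and 3252 and 3269 CPM with JMJD3, and MT-ND3 at 445 and 489.5 CPM with the vector and 371 and 362 CPM with JMJD3. In all 3 genes both JMJD3 libraries were below both vector libraries, and the log2 fold changes of MT-ND1 and MT-ND3 were -0.51 and -0.35. MT-ND4 lost the call with limma on either FPKM scale and MT-ND1 on log2(FPKM + 1). MT-ND3 was called in 11 of 18 other fits and lost the call without JMJD3 library 1 (-0.37) and without JMJD3 library 2 (-0.33). MT-ND6 is the only protein gene on the other strand of the mitochondrial genome. It stood at 484 and 546 CPM with the vector and 283 and 274 CPM with JMJD3. That was the largest fall in this complex among mitochondrial genes, at -0.89 (standard error 0.09, adjusted p = 0.0014) by edgeR. MT-ND6 was called in all 18 other fits. Its reads show only what poly(A) selection kept. Whether the libraries keep the strand is not stated, so reads from the opposite strand may be among them.

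The other 3 mitochondrial genes of complex I did not pass the test. MT-ND2 stood at 5206 and 4926 CPM with the vector and 4428 and 4533 CPM with JMJD3, a log2 fold change of -0.18. Between 7.59 and 9.57% of the reads of MT-ND2 and its nuclear copies were assigned to the copies. The level of MT-ND2 thus depends on how reads were divided. MT-ND5 stood at 2849 and 2177 CPM with the vector and 1927 and 2115 CPM with JMJD3, at -0.31. In both genes the JMJD3 libraries were below the vector libraries, but by less, or with vector libraries further apart, than in MT-ND1 or MT-ND4. Without vector library 2 MT-ND5 was at -0.49 and called lower, as it was without JMJD3 library 2, at -0.38. Without vector library 1, within lane 17, it was at -0.15, and without JMJD3 library 1 at -0.25, and not called in either fit. By the DESeq2 Wald test MT-ND5 was called lower, as with replicate numbers as a block or crossed. The same held after the correction for length and that for GC content and length. In 11 of 18 other fits MT-ND5 was not called. MT-ND4L shares an mRNA and 7 bases with MT-ND4, and stood at 801 and 550.2 CPM with the vector and 696 and 754 CPM with JMJD3, at 0.10. Its groups overlap and its vector libraries differ most of the 13 genes, so that it was at -0.14 without vector library 2 and at 0.36, called higher, without vector library 1. The ratio of MT-ND4 to MT-ND4L in CPM was 16.2 and 22.6 with the vector and 12.6 and 11.8 with JMJD3, lower in both JMJD3 libraries although the genes share an mRNA. Descriptions of the counting conflict, so how reads were divided between them is uncertain.

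Of the 36 nuclear genes of complex I 27 fell, with a median log2 fold change of -0.46 and a sum of 3370.2 and 3941 CPM with the vector and 2720.2 and 2531 CPM with JMJD3. Both JMJD3 libraries were below both vector libraries in that sum. The 7 core genes of the peripheral arm bind FMN, iron-sulfur clusters or the ubiquinone site, and 6 of them fell. NDUFV1, which carries FMN and the NADH site, stood at 325 and 367 CPM with the vector and 246 and 233 CPM with JMJD3, a log2 fold change by edgeR of -0.53 (standard error 0.09, adjusted p = 0.00551). NDUFS3 stood at 120.4 and 147 CPM with the vector and 91.2 and 78.1 CPM with JMJD3, at -0.66 (standard error 0.13, adjusted p = 0.00853) by edgeR. Neither gene overlaps between the groups, and both were called in all 19 other fits. NDUFV2 and NDUFS1, which hold iron-sulfur clusters near the entry of electrons, fell by log2 fold changes of -0.55 and -0.34, and NDUFS7, which lines the quinone site, by -0.40. NDUFV2 lost the call without JMJD3 library 2 (-0.49), and NDUFS1 and NDUFS7 without JMJD3 library 1 (-0.33 and -0.42) or 2 (-0.35 and -0.37), and these genes were called in 17 of 19, 14 of 19 and 12 of 19 other fits. NDUFS8 did not pass, at 111 and 138 CPM with the vector and 110.1 and 102 CPM with JMJD3 and -0.23, its second JMJD3 library being the lowest and vector library 2 alone standing clear of the rest, and was called lower without vector library 1 (-0.42) and at -0.06 without vector library 2. Of NDUFV2 28.4% of exon bases lie in another gene on the same strand, and of NDUFS7 51.4% in genes on the opposite strand, and whether the libraries keep the strand is not stated.

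The 29 accessory genes of complex I, whose products surround the core and are needed to assemble or stabilise it, held 21 that fell. NDUFB8, in the membrane arm, had the largest fall of all nuclear members with all libraries, close to that of COX5A (-0.91). COX5A was the lower without vector library 2 (-0.81 against -0.77) and without JMJD3 library 2 (-0.87 against -0.84). NDUFB8 stood at 144 and 174 CPM with the vector and 88.5 and 79.7 CPM with JMJD3, a log2 fold change by edgeR of -0.92 (standard error 0.12, adjusted p = 0.0025). NDUFC1, a small subunit of the membrane arm, stood at 45.3 and 56.3 CPM with the vector and 31.5 and 26.3 CPM with JMJD3, at -0.81 (standard error 0.15, adjusted p = 0.00703) by edgeR. NDUFA9, which sits near the quinone site, stood at 82.8 and 95.7 CPM with the vector and 54.4 and 51.9 CPM with JMJD3, at -0.75 (standard error 0.10, adjusted p = 0.00309) by edgeR. In all 3 genes every JMJD3 library was below every vector library, and all 3 were called in all 19 other fits, although 33.8% of the exon bases of NDUFB8 are shared with another gene on the same strand. At the other end NDUFV3, an accessory subunit beside NDUFV1, stood at 44.2 and 49.2 CPM with the vector and 51.7 and 47.7 CPM with JMJD3, at 0.09, with overlapping groups, and at -0.02 without vector library 1. NDUFA5 stood at 59.6 and 57.6 CPM with the vector and 57.9 and 49.8 CPM with JMJD3, at -0.12, and NDUFA7 at 41.1 and 49.0 CPM with the vector and 40.8 and 39.8 CPM with JMJD3, at -0.16. Neither passed, though NDUFA7 was called lower without vector library 1 (-0.32; -0.03 without vector library 2), and 32.5% of the exon bases of NDUFA7 are shared with another gene. Per length the accessory genes spanned a wide range in vector cells, from 24.7 FPKM for NDUFV3 to 665 FPKM for NDUFS5. Leaving out vector 1, vector 2, JMJD3 1 and JMJD3 2 in turn, 37, 28, 18 and 12 of the 43 genes of complex I were lower.

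Complex II, succinate dehydrogenase, is at once an enzyme of the TCA cycle and the only complex encoded by the nucleus alone. Of its 4 genes 3 fell, and they summed to 910.4 and 974 CPM with the vector and 669 and 647 CPM with JMJD3. SDHA, which binds FAD and succinate, stood at 531 and 571 CPM with the vector and 367 and 357 CPM with JMJD3, a log2 fold change by edgeR of -0.61 (standard error 0.07, adjusted p = 0.00241). SDHB, the iron-sulfur subunit, stood at 136 and 153 CPM with the vector and 97.7 and 95.4 CPM with JMJD3, at -0.58 (standard error 0.09, adjusted p = 0.0044) by edgeR. Both catalytic subunits were lower in both JMJD3 libraries and were called in all 19 other fits. SDHC and SDHD anchor them in the membrane and bind ubiquinone and haem. SDHD stood at 163 and 166 CPM with the vector and 129 and 118 CPM with JMJD3, at -0.41 (standard error 0.08, adjusted p = 0.0102) by edgeR, with its JMJD3 libraries below its vector libraries. It lost the call without JMJD3 library 1 (-0.48) and without JMJD3 library 2 (-0.35). SDHC stood at 80.1 and 84.6 CPM with the vector and 75.5 and 76.4 CPM with JMJD3, at -0.12, which did not pass. Its groups do not overlap but lie close, and without vector library 1 it was called lower, at -0.19. On FPKM SDHC was further apart, at 108 and 126 FPKM with the vector and 87.3 and 88.2 FPKM with JMJD3, and limma called it lower on both FPKM scales, so that for this gene the deposited counts and FPKM give different answers. With total counts and no further scaling SDHC was at 0.05, above 0.

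Complex III, the cytochrome bc1 complex, joins nuclear genes that mostly fell to a mitochondrial gene that did not. MT-CYB (ENSG00000198727), cytochrome b and its only mitochondrial gene, stood at 2021 and 1982 CPM with the vector and 2209 and 2150.4 CPM with JMJD3, a log2 fold change by edgeR of 0.12 (standard error 0.06, adjusted p = 0.167). It did not pass the test, but it is the only mitochondrial gene with both JMJD3 libraries above both vector libraries. Of the 9 nuclear genes 8 fell, and they summed to 1399 and 1556 CPM with the vector and 1102 and 1019 CPM with JMJD3. The ratio of MT-CYB to the nuclear sum in CPM was therefore 1.44 and 1.27 with the vector and 2.00 and 2.11 with JMJD3. It was higher in both JMJD3 libraries, whereas the same ratio overlapped between the groups in complex I (8.15 and 6.52 with the vector and 7.25 and 7.98 with JMJD3) and complex IV (19.97 and 17.03 with the vector and 16.2 and 18.0 with JMJD3). In complex V it was 1.64 and 1.48 with the vector and 1.36 and 1.45 with JMJD3, lower in both JMJD3 libraries. The difference between complexes was not tested. In complex III the mitochondrial side of the ratio is MT-CYB alone, which holds the highest log2 fold change of the mitochondrial genes. MT-CYB rose with total counts and no further scaling (0.29) and after the correction for GC content and length (0.17), and it was above 0 in all 18 other fits.

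UQCRFS1, the Rieske iron-sulfur protein that hands electrons to cytochrome c1, stood at 159 and 171 CPM with the vector and 101 and 92.1 CPM with JMJD3, a log2 fold change by edgeR of -0.77 (standard error 0.09, adjusted p = 0.0021). UQCRQ, a small subunit that binds near cytochrome b, stood at 80.7 and 98.7 CPM with the vector and 56.7 and 49.9 CPM with JMJD3, at -0.75 (standard error 0.13, adjusted p = 0.00572) by edgeR. Both genes were clearly lower in both JMJD3 libraries and were called in all 19 other fits. UQCR10, another small subunit, stood at 61.7 and 71.2 CPM with the vector and 50.4 and 43.5 CPM with JMJD3, at -0.50, and was called in 16 of 19 other fits, and not without JMJD3 library 2 (-0.40). UQCRC1 and UQCRC2, the large core proteins on the matrix side, stood at 287 and 335 CPM with the vector and 241 and 232 CPM with JMJD3 and at 282 and 293 CPM with the vector and 222 and 214 CPM with JMJD3. They fell by log2 fold changes of -0.40 and -0.40 and again did not overlap, and lost the call without JMJD3 library 1 (-0.43 and -0.43) or 2 (-0.37 and -0.38). UQCRHL, an intronless copy of the subunit gene UQCRH, rests on 8 and 16 reads with the vector and 26 and 23 with JMJD3 and did not pass, at 0.81. Leaving out vector 1, vector 2, JMJD3 1 and JMJD3 2 in turn, 8, 8, 6 and 2 of the 10 genes were lower, so that without JMJD3 library 2 the calls were those of UQCRFS1 (-0.71) and UQCRQ (-0.66).

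Complex IV, cytochrome c oxidase, had the lowest median of the 5 complexes, at a log2 fold change of -0.60, and 14 of its 15 tested genes fell. Its 3 mitochondrial genes encode the catalytic core and summed to 42054 and 42084 CPM with the vector and 25722 and 25758 CPM with JMJD3. The JMJD3 libraries held 61.2% of the vector mean, with replicates almost equal. MT-CO2 (ENSG00000198712), which takes electrons from cytochrome c through its copper centre, stood at 11182 and 11401 CPM with the vector and 5965 and 5745 CPM with JMJD3. That is the largest fall of all subunit genes, at -0.95 (standard error 0.06, adjusted p = 0.000562) by edgeR, and it was called in all 18 other fits. MT-CO1, which holds the haems and reduces oxygen, stood at 19157 and 18314 CPM with the vector and 11947 and 12406 CPM with JMJD3, at -0.62 (standard error 0.06, adjusted p = 0.00158) by edgeR. MT-CO3 stood at 11714 and 12369.8 CPM with the vector and 7809 and 7607 CPM with JMJD3, at -0.64 (standard error 0.06, adjusted p = 0.00152) by edgeR. Both were lower in both JMJD3 libraries, by less than MT-CO2, and lost the call with limma on log2(FPKM + 1), MT-CO3 also on log2(FPKM + 0.1). Against MT-CYB the level of MT-CO2 in CPM was 5.53 and 5.75 with the vector and 2.70 and 2.67 with JMJD3 times as high. Both lie on the same strand of the same genome. They hold the lowest and highest log2 fold changes of the mitochondrial genes, so this choice alone fixed the fall in the ratio.

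Of the nuclear genes of complex IV 11 of 12 tested fell. COX5A and COX4I1, which bind first to MT-CO1 in assembly, stood at 284 and 324 CPM with the vector and 167 and 157 CPM with JMJD3 and at 312 and 371 CPM with the vector and 228 and 206 CPM with JMJD3. Their log2 fold changes by edgeR were -0.91 (standard error 0.09, adjusted p = 0.00157) and -0.65 (standard error 0.11, adjusted p = 0.0052). COX7B, a small transmembrane subunit, stood at 207 and 220.0 CPM with the vector and 138 and 122 CPM with JMJD3, at -0.72 (standard error 0.09, adjusted p = 0.00261) by edgeR. No group overlapped in these 3 genes, and all were called in all 19 other fits. COX5B, which binds zinc on the matrix side, and NDUFA4 fell by log2 fold changes of -0.60 and -0.62, and COX6A1, COX6B1, COX7A2 and COX8A by -0.58, -0.47, -0.60 and -0.39. COX6B1 and COX8A lost the call without vector library 2 (-0.29 and -0.23) and without JMJD3 library 2 (-0.31 and -0.32), and COX5B and COX7A2 without JMJD3 library 2 (-0.52 and -0.50). COX7A2L, which joins complexes III and IV into supercomplexes, did not pass, at 62.5 and 71.1 CPM with the vector and 56.4 and 54.8 CPM with JMJD3 and -0.26, though its groups do not overlap, and was called lower without vector library 1 (-0.39; -0.17 without vector library 2). Leaving out vector 1, vector 2, JMJD3 1 and JMJD3 2 in turn, 15, 12, 14 and 8 of the 15 genes were lower.

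The tissue and stage isoforms of complex IV were not expressed at a level that could be compared. COX4I2 of lung, COX6A2 and COX7A1 of muscle and COX7B2 of testis had 0 reads in all 4 libraries, which allows up to 3 reads, or between 0.0671 and 0.0925 CPM, in a library. The testis isoforms COX6B2 and COX8C had at most 3 reads and 1 read in a library. Transcripts of their common forms were present in all libraries. Per length these were COX8A at 1179 and 1454 FPKM with the vector and 1005 and 936 FPKM with JMJD3 and COX6A1 at 1072 and 1246 FPKM with the vector and 769.7 and 730.1 FPKM with JMJD3, then COX4I1 at 689 and 831 FPKM with the vector and 495 and 454 FPKM with JMJD3. COX6B1 stood at 193 and 249.6 FPKM with the vector and 172 and 139.5 FPKM with JMJD3, COX7A2 at 177 and 228 FPKM with the vector and 139 and 120.2 FPKM with JMJD3 and COX7B at 99.3 and 109.7 FPKM with the vector and 67.1 and 61.8 FPKM with JMJD3. The order of these 6 genes by FPKM was the same in all libraries. ATP5J2LP had 0 reads and ATP5L2 at most 1 read in a library.

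Complex V, the ATP synthase, has 20 tested genes, of which 15 fell. MT-ATP6, subunit a of the proton channel, stood at 6289 and 6288 CPM with the vector and 4029 and 3978 CPM with JMJD3, a log2 fold change by edgeR of -0.65 (standard error 0.06, adjusted p = 0.00135). MT-ATP8 lies on the same mRNA, overlaps MT-ATP6 by 46 bases, and stood at 495 and 435 CPM with the vector and 366 and 374 CPM with JMJD3, at -0.33 (standard error 0.09, adjusted p = 0.023) by edgeR. Both fell, MT-ATP8 by less and less firmly. MT-ATP6 lost the call with limma on log2(FPKM + 1) alone. MT-ATP8 was called in 10 of 18 other fits, was at -0.31 and -0.35 without JMJD3 libraries 1 and 2 and not called, and was at 0.09 after the correction for GC content and length. At 207 bases it is the shortest of the 13 genes, and its 88451 FPKM in vector cells, against 15292 FPKM for MT-ATP6, depend on how that length enters. Between 12.8 and 13.8% of the reads of MT-ATP6 and its nuclear copies were assigned to the copies, so that its level depends on how reads were divided.

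In the F1 head, where ATP is made, both tested genes fell. ATP5B, the catalytic beta subunit and the nuclear member with the most reads, stood at 1363 and 1438 CPM with the vector and 1029 and 979 CPM with JMJD3, a log2 fold change by edgeR of -0.48 (standard error 0.07, adjusted p = 0.00393). ATP5A1, the alpha subunit, stood at 512 and 522 CPM with the vector and 382 and 363 CPM with JMJD3, at -0.47 (standard error 0.07, adjusted p = 0.0042) by edgeR. Both fell by nearly the same factor, and ATP5A1 lost the call without JMJD3 library 2 (-0.44). In the central stalk, the rotor that drives the head, all 3 genes fell. ATP5D, the delta subunit, had the largest fall of the complex, at 137 and 149.9 CPM with the vector and 86.2 and 74.2 CPM with JMJD3 and -0.84 (standard error 0.10, adjusted p = 0.00243) by edgeR. ATP5C1, the gamma subunit, and ATP5E, the epsilon subunit, fell by log2 fold changes of -0.46 and -0.47. All JMJD3 libraries were below all vector libraries in these genes. ATP5C1 and ATP5E lost the call without JMJD3 library 2 (-0.43 and -0.34), and ATP5E also without vector library 2 (-0.32).

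The c ring, which turns as protons pass, is made of 1 protein encoded by 3 genes that differ in their import signals. ATP5G1 stood at 92.5 and 114 CPM with the vector and 68.7 and 64.2 CPM with JMJD3 and ATP5G3 at 314 and 359 CPM with the vector and 229 and 209 CPM with JMJD3, and they fell by log2 fold changes of -0.63 and -0.62. ATP5G2 stood at 232 and 272 CPM with the vector and 240.1 and 217 CPM with JMJD3, at -0.14, and did not pass. The groups are apart in ATP5G1 and ATP5G3 and overlap in ATP5G2, although all 3 genes give the same mature protein, and the difference between the genes was not tested. ATP5G2 was called lower without vector library 1 (-0.29) and was at -0.02 without vector library 2. In the peripheral stalk, which holds the head still, ATP5J (factor 6), ATP5F1 (subunit b) and ATP5O (OSCP) fell by log2 fold changes of -0.68, -0.48 and -0.32. ATP5H, subunit d, stood at 65.7 and 77.4 CPM with the vector and 67.2 and 61.9 CPM with JMJD3, at -0.15, with overlapping groups, and was called lower without vector library 1 (-0.30; -0.02 without vector library 2). ATP5J was called in all 19 other fits and ATP5O in 9 of 19, losing the call without vector library 2 (-0.20), JMJD3 library 1 (-0.40) or JMJD3 library 2 (-0.24). Without JMJD3 library 2 ATP5F1 and ATP5L also lost it (-0.44 and -0.43). Of the small membrane subunits ATP5J2 and ATP5L fell by log2 fold changes of -0.73 and -0.49, while ATP5I, at 41.8 and 53.9 CPM with the vector and 38.8 and 31.4 CPM with JMJD3 and -0.45, did not pass. ATP5I has no overlap of the groups, but 61.3% of its exon bases lie opposite MYL5. It was called lower in 9 of 19 other fits, among them those without vector library 1 (-0.66) and without JMJD3 library 1 (-0.61), and was at -0.25 without vector library 2. Per length ATP5J2 was the highest nuclear member, at 1847 and 2078 FPKM with the vector and 1342 and 1158 FPKM with JMJD3, and lower in both JMJD3 libraries.

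Of the ATP5 names that stand for no subunit, ATP5S stood at 16.3 and 15.8 CPM with the vector and 16.9 and 18.1 CPM with JMJD3 and the readthrough gene ATP5J2-PTCD1 at 28.9 and 24.5 CPM with the vector and 26.4 and 25.6 CPM with JMJD3. Neither passed, at log2 fold changes of 0.12 and -0.04, and 87.9% of the exon bases of the latter are shared with ATP5J2 and PTCD1. ATP5SL fell, at -0.38, and was called in 15 of 19 other fits, and not without JMJD3 library 1 (-0.34) or 2 (-0.42). Leaving out vector 1, vector 2, JMJD3 1 and JMJD3 2 in turn, 18, 13, 13 and 7 of the 20 genes of complex V were lower.

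**Figure D3:**
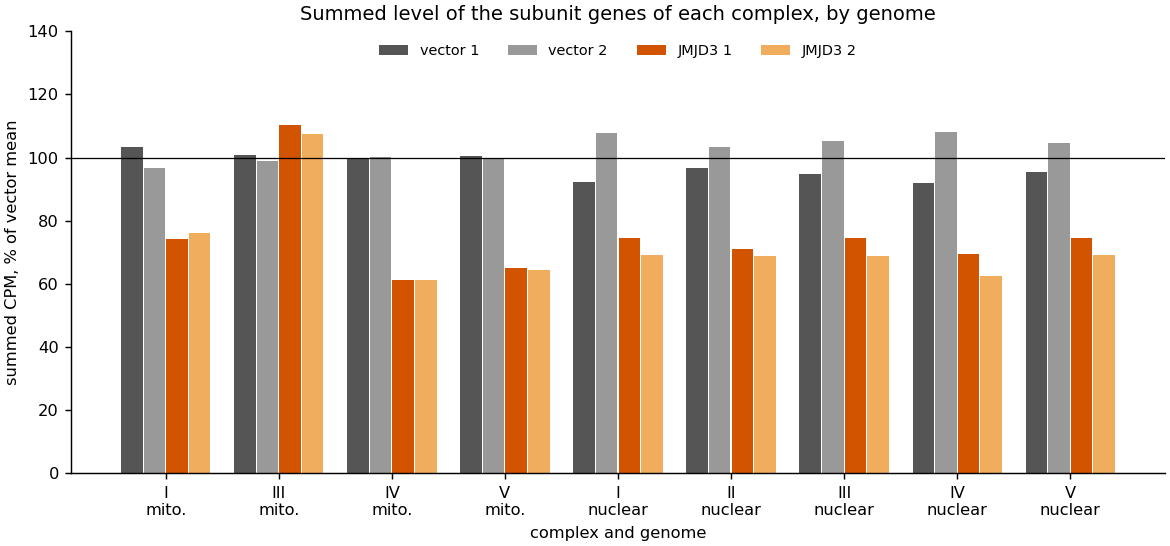
Summed CPM of the subunit genes of each complex, mitochondrial and nuclear apart, in each of the 4 libraries, as a percentage of the mean of the vector libraries. JMJD3 bars lie below both vector bars in every set but mitochondrial complex III, which is MT-CYB alone, and vector library 2 is above vector library 1 in each nuclear set.

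Subunit genes are abundant and short, and both properties went with lower values in JMJD3 cells among all genes. Of the 5995 genes tested at a mean of at least 30 CPM 31.7% fell and 12.8% rose, with a median log2 fold change of -0.13, while the 74 nuclear subunit genes at that level held 62 that fell and a median of -0.48. Among the 1019 of those genes in the shortest 25% of genes by length 47.5% fell and 2.55% rose, with a median of -0.30, and there 50 of 60 nuclear subunit genes fell, with a median of -0.49. Read against genes of like level and length the subunit genes are thus lower by less than against all genes. A correction for length left a median of -0.42 over the nuclear and -0.45 over the mitochondrial genes, with 66 and 8 lower, while 27.8% of all genes were lower. What level and length contribute was not tested further.

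**Figure D4:**
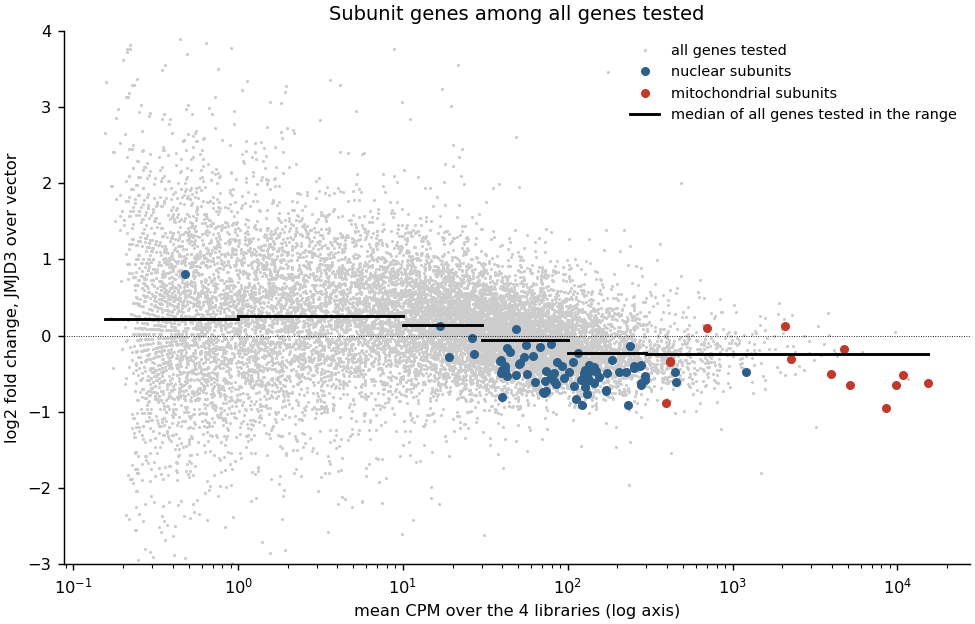
Log2 fold change (vertical axis, cut off at both ends) against mean CPM over the 4 libraries (log axis) for all genes tested, in grey, with the subunit genes in blue (nuclear) and red (mitochondrial) and the median of all genes in each range of CPM as a black line. The line runs from 0.21 in the lowest range to -0.24 above 300 CPM, and most subunit genes lie below it.

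Most nuclear subunit genes fell together, so their promoters were read for the motifs of factors known to act on respiratory genes. RefSeq promoters (GRCh38.p14), here the 250 bases before the start, were found for 67 of the 87 nuclear genes. The letters searched on both strands were GCATGCGC (NRF1), CCGGAAG (ETS factors such as GABPA), ATGGCGG (YY1) and GGGCGG (SP1). The NRF1 letters were in 17.9% of these promoters and in 2.81% of all 27305, the ETS letters in 23.9% and 8.81%, the YY1 letters in 7.46% and 2.83%, and the SP1 letters in 53.7% and 42.3%. Subunit genes thus held each motif more often than promoters at large, as a description and with no test. Among the 51 genes that fell the shares were 19.6, 29.4, 5.88 and 58.8% in the same order, and among the 12 that were tested and did not pass 16.7, 8.33, 16.7 and 41.7%. The 12 genes are too few to set these shares apart, and no motif is common to all genes that fell.

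As examples only, the 120 bases before the start are printed for 1 gene of each complex that fell and for NDUFV3, which did not. Motif letters are in capitals, a match is a stretch of letters and not a shown binding site, and all are RefSeq sequence of GRCh38.p14, 5′ to 3′ on the strand of the gene. NDUFB8 is at chr10:100529924-100530043 on the minus strand, SDHD at chr11:112086753-112086872 on the plus strand, UQCRFS1 at chr19:29213152-29213271 on the minus strand, COX5A at chr15:74938074-74938193 on the minus strand, ATP5J at chr21:25735055-25735174 on the minus strand and NDUFV3 at chr21:42893189-42893308 on the plus strand. NDUFB8 and UQCRFS1 hold 1 SP1 match each, COX5A 4 and NDUFV3 2. In SDHD the NRF1 letters match on both strands over the same stretch, followed by an ETS match, and ATP5J holds matches to NRF1, YY1 and ETS. Each gene printed thus holds a match, but these genes do not stand for all that fell. SDHA, NDUFA9, NDUFA11, NDUFV1, COX7B and ATP5G1 also fell and held none of the motifs in the whole stretch searched. SDHA fell by a log2 fold change of -0.61, further than SDHD at -0.41.
NDUFB8: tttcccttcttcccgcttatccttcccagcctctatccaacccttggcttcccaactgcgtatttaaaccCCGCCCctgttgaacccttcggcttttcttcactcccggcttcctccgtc
SDHD: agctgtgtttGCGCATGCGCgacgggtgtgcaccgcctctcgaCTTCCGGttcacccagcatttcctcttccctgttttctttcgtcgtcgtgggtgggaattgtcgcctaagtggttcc
UQCRFS1: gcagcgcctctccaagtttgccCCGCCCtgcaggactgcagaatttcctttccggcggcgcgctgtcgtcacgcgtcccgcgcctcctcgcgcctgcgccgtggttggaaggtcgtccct
COX5A: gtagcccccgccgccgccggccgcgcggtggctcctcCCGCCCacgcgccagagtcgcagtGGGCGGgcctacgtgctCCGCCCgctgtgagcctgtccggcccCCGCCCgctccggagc
ATP5J: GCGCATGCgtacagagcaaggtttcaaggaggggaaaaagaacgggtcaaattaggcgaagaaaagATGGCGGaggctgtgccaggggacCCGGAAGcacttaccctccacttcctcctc
NDUFV3: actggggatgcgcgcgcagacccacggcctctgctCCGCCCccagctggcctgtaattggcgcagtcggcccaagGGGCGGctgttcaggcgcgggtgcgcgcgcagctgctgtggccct

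The start of ATP5J faces that of GABPA, and 37.3% of the exon bases of ATP5J lie opposite GABPA or JAM2. ATP5J stood at 144 and 171 CPM with the vector and 104 and 93.0 CPM with JMJD3, and GABPA at 32.5 and 24.8 CPM with the vector and 31.4 and 29.4 CPM with JMJD3. ATP5J fell and GABPA, at a log2 fold change of 0.08, did not pass, though it was called higher without vector library 1 (0.25; -0.09 without vector library 2), and the difference between them was not tested.

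Cytochrome c carries electrons from complex III to complex IV, and CYC1, cytochrome c1, is the subunit of complex III that meets it, though its name keeps it out of the counts above. CYC1 stood at 207 and 248 CPM with the vector and 138 and 122 CPM with JMJD3, a log2 fold change by edgeR of -0.81 (standard error 0.11, adjusted p = 0.00332), and CYCS, cytochrome c, at 414 and 417 CPM with the vector and 333 and 311 CPM with JMJD3, at -0.37 (standard error 0.07, adjusted p = 0.0101) by edgeR. Both fell, CYC1 nearly as much as NDUFB8, and CYCS lost the call without JMJD3 library 1 (-0.42) and JMJD3 library 2 (-0.32). HCCS, which attaches haem to both, did not pass, at -0.29, and was called lower without vector library 1 (-0.38). It was also called lower with DESeq2 size factors, limma on either FPKM scale, and the replicate numbers crossed as a pairing. The corrections for length and for GC content and length called it lower too, and 12 of 19 other fits did not call it.

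Assembly factors build the complexes, and a few genes on these lists are also subunits. Of 17 genes listed for complex I 15 are in the table under these names, and 10 fell, with a median log2 fold change of -0.43. ECSIT, which acts in assembly of the membrane arm, stood at 73.6 and 88.8 CPM with the vector and 36.3 and 34.3 CPM with JMJD3, at -1.20 (standard error 0.12, adjusted p = 0.00147) by edgeR, a larger fall than that of any subunit gene. NDUFAF5, which modifies NDUFS7, and NDUFAB1, the acyl carrier protein and itself a subunit, fell by log2 fold changes of -0.82 and -0.75. For complex IV 11 of 23 fell and 1 rose, with a median of -0.26. COX16, PET117 and the copper chaperone SCO2 fell by log2 fold changes of -0.95, -0.86 and -0.77, while COA5 stood at 12.4 and 13.9 CPM with the vector and 21.0 and 20.2 CPM with JMJD3 and rose, at 0.65. For complex V 3 of 6 fell, the small subunits C14orf2 and USMG5 and the assembly factor TMEM70, at -0.55, -0.54 and -0.41, with a median of -0.35. Fits without vector 1, vector 2, JMJD3 1 and JMJD3 2 in turn gave 13, 9, 5 and 5 lower for complex I, 15, 11, 4 and 4 for complex IV and 5, 3, 2 and 0 for complex V. Among all genes tested the share lower also went from 19.1% to 9.29 and 7.43% without JMJD3 1 and 2. Without JMJD3 2 C14orf2, USMG5 and TMEM70 were at -0.48, -0.51 and -0.41, and TMEM70 was also not called without JMJD3 1 (-0.42). The lists were not tested against each other.

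Among all genes tested 19.1% fell and 21.6% rose. For complex III 2 of 6 assembly factors fell, UQCC3 and UQCC2, at -0.58 and -0.43, and 1 rose. That gene is LYRM7, the chaperone that delivers the Rieske protein UQCRFS1, and it stood at 35.0 and 27.1 CPM with the vector and 58.0 and 58.7 CPM with JMJD3, a log2 fold change by edgeR of 0.91 (standard error 0.14, adjusted p = 0.004). The chaperone was higher in both JMJD3 libraries and its client UQCRFS1 lower, each in all 19 other fits. For complex II, of 4 factors SDHAF4 alone passed and rose, at 4.16 and 4.47 CPM with the vector and 6.84 and 5.89 CPM with JMJD3 and 0.56. It was called in 12 of 19 other fits and lost the call without vector library 1 (0.47), JMJD3 library 1 (0.45) and JMJD3 library 2 (0.66). The medians of these lists were -0.13 and 0.03, close to that of all genes, and neither list was tested against all genes. UQCC2 was called in 11 of 19 other fits and not without vector library 2 (-0.27), JMJD3 library 1 (-0.50) or JMJD3 library 2 (-0.35), and UQCC3 not without JMJD3 library 2 (-0.50).

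The machinery that expresses the mitochondrial genome is encoded in the nucleus. Of 22 genes listed for its transcription and DNA maintenance 17 are in the table, and 6 fell and 2 rose, with a median log2 fold change of -0.10. Among all genes tested 19.1% fell and 21.6% rose, and among those of at least 30 CPM 31.7% and 12.8%, a level that some of the 17 do not reach. POLRMT, the RNA polymerase of mitochondria, stood at 179 and 190.2 CPM with the vector and 112 and 111 CPM with JMJD3, at -0.73 (standard error 0.08, adjusted p = 0.00184) by edgeR. POLG, its DNA polymerase, stood at 232 and 245 CPM with the vector and 136 and 136 CPM with JMJD3, at -0.81 (standard error 0.08, adjusted p = 0.00135) by edgeR, and TFB2M, which opens the promoters for POLRMT, fell by a log2 fold change of -0.59. TFAM, which binds the promoters and packages the genome, did not pass, at 146 and 123 CPM with the vector and 119.8 and 123 CPM with JMJD3 and -0.14. The groups of TFAM overlap, and it was called lower without vector library 2 (-0.26) and was at -0.05 without vector library 1. After the correction for GC content and length the TFAM log2 fold change was -0.23 and called lower. TFB2M lost the call without JMJD3 library 2 (-0.59). PRIMPOL, a primase-polymerase, and MGME1, an exonuclease, rose by log2 fold changes of 0.83 and 0.35, MGME1 in 12 of 19 other fits and not without JMJD3 library 1 (0.35) or 2 (0.35). Of 22 genes listed for processing and stability of mitochondrial RNA 20 are in the table, and 11 fell, with a median of -0.32. TRMT10C, part of the enzyme that cuts tRNAs out of the long transcripts, the helicase SUPV3L1 of the RNA degradosome and SLIRP fell by log2 fold changes of -0.70, -0.69 and -0.65. LRPPRC, the partner with which SLIRP protects mitochondrial mRNA, stood at 446 and 374 CPM with the vector and 352 and 369.7 CPM with JMJD3, and did not pass, at -0.19, but was called lower without vector library 2 (-0.31) and was at -0.09 without vector library 1. Without vector 1, vector 2, JMJD3 1 and JMJD3 2 in turn there were 7, 9, 4 and 2 lower for transcription and DNA maintenance and 14, 17, 6 and 4 for RNA, so that fewer were called without either JMJD3 library, as among all genes.

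Of 12 nuclear regulators of respiratory genes 11 were tested, and 3 fell and 2 rose, with a median log2 fold change of 0.08. Among all genes tested 19.1% fell and 21.6% rose, and the list was not tested against them. Those that fell are coactivators and their partner. PPARGC1B stood at 49.8 and 36.1 CPM with the vector and 24.7 and 29.0 CPM with JMJD3, PPRC1 at 231 and 215 CPM with the vector and 149 and 153 CPM with JMJD3 and the receptor ESRRA at 75.1 and 90.1 CPM with the vector and 63.5 and 63.7 CPM with JMJD3. All 3 were lower in both JMJD3 libraries, at log2 fold changes of -0.68, -0.56 and -0.38, and PPRC1 was called in all 19 other fits. PPARGC1B lost the call without JMJD3 library 1 (-0.56), and ESRRA without JMJD3 library 1 (-0.38) or 2 (-0.38). PPARGC1A, the coactivator best known for mitochondrial biogenesis, was not tested, at 0.154 and 0.0274 CPM with the vector and 0 and 0.0448 CPM with JMJD3. The factors whose letters were searched in the promoters did not pass, NRF1 at 22.9 and 23.5 CPM with the vector and 25.7 and 23.5 CPM with JMJD3, YY1 at 178 and 152 CPM with the vector and 168 and 173 CPM with JMJD3 and SP1 at 83.2 and 66.0 CPM with the vector and 76.6 and 80.2 CPM with JMJD3. Their log2 fold changes were 0.09, 0.04 and 0.07, and the sign of each turned in some fits. SP1 was called higher without vector library 1 (0.21; -0.08 without vector library 2), and after the correction for GC content and length the YY1 log2 fold change was -0.19 and the SP1 log2 fold change -0.15, both called lower. CREB1 rose, at 25.9 and 19.01 CPM with the vector and 39.4 and 38.7 CPM with JMJD3 and 0.80, in all 19 other fits. GABPB2, a partner of GABPA, rose at 0.51 in 13 of 19 other fits, and not without vector library 2 (0.39), JMJD3 library 1 (0.60) or JMJD3 library 2 (0.41). In fits without vector 1, vector 2, JMJD3 1 and JMJD3 2 in turn there were 3, 3, 1 and 2 regulators lower and 4, 2, 1 and 1 higher.

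Genes that feed the chain and serve it were also mostly lower. In the TCA cycle, which makes the NADH and succinate that complexes I and II use, 12 of 13 genes fell, with a median log2 fold change of -0.45. Among all genes tested 19.1% fell, and 31.7% of those of at least 30 CPM, 43.96% at 100 to 300 CPM and 48.0% over 300 CPM. IDH3B, a subunit of the NADH-producing isocitrate dehydrogenase, stood at 268 and 299 CPM with the vector and 171 and 161 CPM with JMJD3, and citrate synthase, CS, at 483 and 459.7 CPM with the vector and 316 and 323 CPM with JMJD3. Both were lower in both JMJD3 libraries, at -0.77 (standard error 0.09, adjusted p = 0.00203) and -0.56 (standard error 0.07, adjusted p = 0.00266) by edgeR, and SUCLG1 of succinyl-CoA ligase fell by a log2 fold change of -0.52. SUCLG2, its GTP-forming partner, did not pass, at -0.26, but was called lower without vector library 2 (-0.38), and SUCLG1 lost its call without JMJD3 library 2 (-0.50). Of 15 carriers, porins and import genes listed 14 are in the table, and 13 fell, with a median of -0.52. TIMM44 and TOMM40, which move cytosolic subunits across the inner and outer membrane, stood at 133 and 155 CPM with the vector and 77.0 and 75.8 CPM with JMJD3 and at 357 and 425 CPM with the vector and 225 and 212 CPM with JMJD3. They fell by log2 fold changes of -0.91 and -0.84 in all 19 other fits. SLC25A4, the ADP/ATP carrier of muscle and heart, was barely present, at 1.79 and 1.45 CPM with the vector and 0.724 and 0.761 CPM with JMJD3, and fell at -1.11. TOMM70A, an import receptor, was the exception, at 134 and 117 CPM with the vector and 129 and 138 CPM with JMJD3 and 0.09, which did not pass. After the correction for GC content and length the TOMM70A log2 fold change was -0.21 and called lower. Fits without vector 1, vector 2, JMJD3 1 and JMJD3 2 in turn had 12, 13, 4 and 3 of the 13 TCA genes and 13, 13, 11 and 8 of the 14 others lower. In these fits 27.4, 21.8, 9.29 and 7.43% of all genes tested were lower, and the lists were not tested against all genes.

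**Figure D5:**
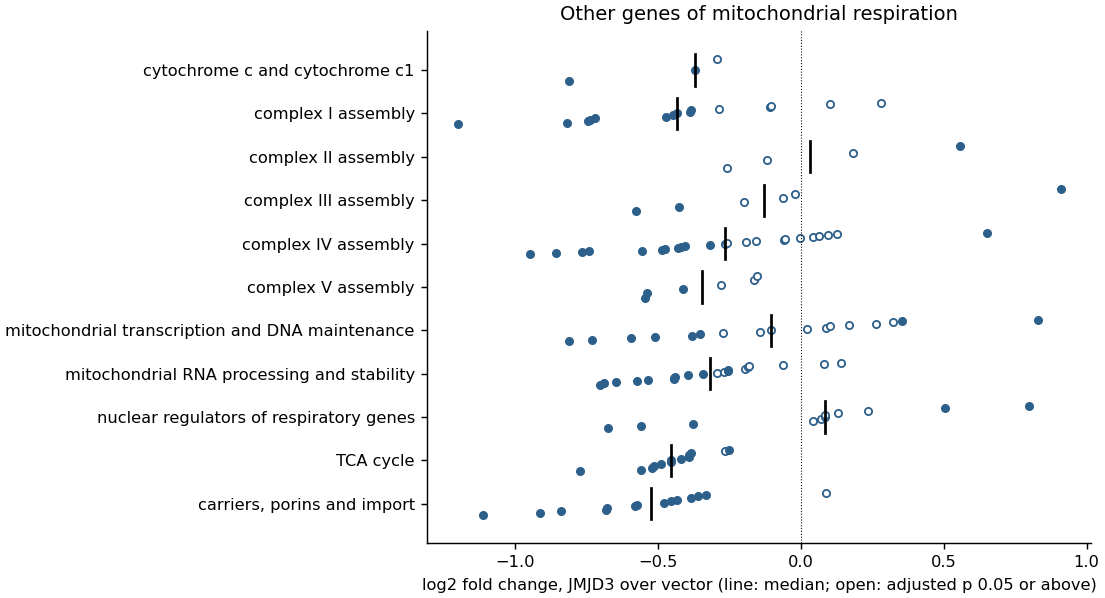
Log2 fold change (JMJD3 over vector, horizontal axis) of each tested gene of 11 lists around the respiratory chain, with the median of each list as a black line and open circles for an adjusted p of 0.05 or above. The lines lie between -0.52 for carriers, porins and import and 0.08 for nuclear regulators, and 4 lists hold genes that rose and genes that fell.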

How the data were processed

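RNA sequencing of 4 libraries, 2 with the control vector and 2 with JMJD3, was read from 1 table of 60662 genes. Per the notes of the submitters, the authors made the deposited estimated count values with RSEM after TopHat2 2.0.4, with base calls from CASAVA 1.8, the genome GRCh38, and edgeR for their comparison; other descriptions of the series and the study's methods name other aligners, counters and builds, so that the software behind the table is uncertain. The deposited FPKM values are scaled by length. The 7 columns not used hold the mean FPKM of each group and the authors' log fold change, p-value, FDR, significance mark and direction. Most deposited counts are not whole but are whole multiples of 1 step per library (1.14297, 1.04676, 0.992796 and 0.82875 for vector 1, vector 2, JMJD3 1 and JMJD3 2), and dividing by the step gives 34190327, 38947096, 35431637 and 41876222 reads. A value of 0 allows up to 3 reads, which is 0.0925, 0.0823, 0.0804 and 0.0671 CPM.

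Deposited counts were rounded, filtered with filterByExpr and scaled by TMM, and the groups were compared with the quasi-likelihood test of edgeR 4.0.16 in R 4.3.3, with Benjamini-Hochberg adjustment over 15246 genes. Standard errors are the absolute log2 fold change over the square root of F. Alternatives used DESeq2 1.42.0 and limma 3.58.1, other scalings, filters and thresholds, a block by replicate number, corrections for gene length and GC content, and fits without each library. Scripts were tested on simulated data.

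The members and lists were chosen with earlier results of these data known. Named by rule are all mitochondrial members, the catalytic or core nuclear subunits, the tissue isoforms beside their common forms, NDUFA4, KDM6B, and in each complex and list up to 3 genes with the largest rise and 3 with the largest fall among those that passed. Other genes named, and the grouping of subunits by role within complexes, were chosen after their values were seen. The 11 lists are cytochrome c and cytochrome c1, the assembly factors of each of the 5 complexes (with NDUFAB1, C14orf2 and USMG5, which are also subunits), mitochondrial transcription and DNA maintenance, mitochondrial RNA processing and stability, nuclear regulators, the TCA cycle, and carriers, porins and import. A single core subunit and a list of markers are not reported here by name. Promoter motifs were counted in the 250 bases before the start.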

Additional observations from a re-analysis of the deposited data

How the results depend on the processing

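With 2 libraries a group, and with no statement that they came from separate transductions, the p-values rest on the spread between these libraries. The vector pair differed by more than the JMJD3 pair (chi-square per degree of freedom 23.3 and 5.57), and 1 vector library was on another lane. No second line, time point or protein level is in these files. Descriptions of the counting conflict, so how reads of overlapping or duplicated genes were divided is uncertain. RNA per cell was not measured, so all levels are relative to the rest of the RNA. The cause of the differences below was not tested. The correction for GC content and length, the recovered reads, the crossed pairing, the sum with nuclear copies and the rule read to the letter were chosen after seeing the data.

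The count of mitochondrial subunits lower was 9, and 2 with limma on log2(FPKM + 1), 5 on log2(FPKM + 0.1) and 0 by edgeR at 2-fold or more. Leaving out single libraries gave 7 to 10. The count of mitochondrial subunits higher was 0, and 1 with total counts, 1 without vector replicate 1 and 1 after the correction for GC content and length. The median log2 fold change of mitochondrial subunits was -0.51, and -0.54 with DESeq2 size factors or the DESeq2 Wald test, -0.47 with upper quartile scaling, -0.34 with total counts, -0.55 with limma on either FPKM scale, -0.45 after the length correction and -0.44 after the correction for GC content and length. Without single libraries it ran from -0.53 to -0.51. The mitochondrial share of counts differed by -1.75 percentage points, by -1.14 as a share of summed FPKM, and by -1.89 to -1.62 without single libraries.

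The count of nuclear subunits lower was 62, and 39 with total counts, 36 with no filter, 31 at an adjusted p under 0.01 by edgeR and 0 at 2-fold or more. Leaving out single libraries gave 23 to 73, the 23 without JMJD3 replicate 2. The median log2 fold change of nuclear subunits was -0.48, and -0.31 with total counts. Without single libraries it ran from -0.63 to -0.38. The KDM6B log2 fold change ran from 1.36 to 1.58 without single libraries. With the replicate number as a block 10 mitochondrial and 56 nuclear genes were lower, and with the numbers crossed as a pairing 11 and 68. The differences between replicates 1 and 2 correlated between the groups at -0.25 over 15246 genes, which gives no ground for that block.

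Signs turned for some genes that had not passed, and for MT-ATP8, which had. The MT-ND4L log2 fold change was -0.0014 with limma on either FPKM scale, and ran from -0.14 without vector replicate 2 to 0.36 without vector replicate 1. The MT-ATP8 log2 fold change was 0.086 after the correction for GC content and length. With total counts the SDHC log2 fold change was 0.054, the ATP5G2 log2 fold change 0.031, the ATP5H log2 fold change 0.022, the NDUFA5 log2 fold change 0.047, the NDUFA7 log2 fold change 0.0099 and the TFAM log2 fold change 0.026. The ATP5H log2 fold change was also 0.011 after the correction for GC content and length. The NDUFV3 log2 fold change ran from -0.024 without vector replicate 1 to 0.17 without vector replicate 2. The ATP5J2-PTCD1 log2 fold change was 0.0023 with upper quartile scaling, 0.13 with total counts, 0.019 and 0.020 with limma on log2(FPKM + 1) and log2(FPKM + 0.1), 0.051 without vector replicate 1 and -0.15 without vector replicate 2. The LRPPRC log2 fold change was 0.014 with limma on either FPKM scale.

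After the length correction and the correction for GC content and length, in that order, the NRF1 log2 fold change was -0.041 and -0.018, the GABPA log2 fold change -0.11 and -0.20, the YY1 log2 fold change -0.18 and -0.19, the SP1 log2 fold change -0.14 and -0.15, and the TOMM70A log2 fold change -0.098 and -0.21. Without vector replicate 2 and without vector replicate 1, the lowest and highest of such fits, the GABPA log2 fold change was -0.095 and 0.25, the YY1 log2 fold change -0.063 and 0.12, the SP1 log2 fold change -0.084 and 0.21, and the TOMM70A log2 fold change -0.0038 and 0.15.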

Other observations

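The mitochondrial genome also encodes the 2 rRNAs of the ribosome that translates the 13 subunits. MT-RNR2, the large rRNA, stood at 4439 and 4495 CPM with the vector and 1913 and 1978 CPM with JMJD3, a log2 fold change by edgeR of -1.20 (standard error 0.06, adjusted p = 0.000375). MT-RNR1, the small rRNA, stood at 663 and 703 CPM with the vector and 486 and 483 CPM with JMJD3, at -0.50 (standard error 0.07, adjusted p = 0.00364) by edgeR. Both fell, and MT-RNR2 fell further than any subunit gene. The ratio of MT-RNR2 to MT-RNR1 in CPM was 6.70 and 6.39 with the vector and 3.93 and 4.10 with JMJD3, lower in both JMJD3 libraries although both genes lie side by side on the same strand. Since these libraries were made from poly(A) RNA, rRNA reads show only what that selection kept. The 22 tRNA genes of the mitochondrial genome held 36, 64, 25 and 45 reads in vector 1, vector 2, JMJD3 1 and JMJD3 2, too few to compare.

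The nuclear genome holds copies of mitochondrial subunit genes, 373 in the table, with 59049, 68007, 52272 and 62400 reads in the same order. Of these 12 were tested, 5 fell and 0 rose by edgeR, while among all genes tested 19.1% fell and 21.6% rose. Of all genes over 300 CPM, 48.0% fell and 7.83% rose. The 3 nuclear copies with the most reads lie over that level and are copies of MT-ATP6, MT-ND2 and MT-CO1. MTATP6P1 stood at 924 and 1002 CPM with the vector and 643 and 621 CPM with JMJD3 and MTCO1P12 at 380.2 and 417 CPM with the vector and 271 and 272 CPM with JMJD3. They fell by log2 fold changes of -0.61 and -0.55, near those of MT-ATP6 (-0.65) and MT-CO1 (-0.62), while MTND2P28 did not pass, at 486 and 404 CPM with the vector and 463 and 479.6 CPM with JMJD3 and 0.08, as MT-ND2 did not. Whether reads of the copies come from the mitochondrial genes cannot be told from the table.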
